A study of Homo sapiens with 2 samples.

Results

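GATA2 is a zinc-finger transcription factor that binds short DNA motifs built on the letters GATA and is known for its part in blood stem cells and in the prostate. In prostate cancer cells it is known to act at enhancers that the androgen receptor also uses. Enhancers often stand in groups along a chromosome. The peaks described here stood apart from the other GATA2 peaks of the list. Each lay on an autosome with no other peak midpoint within 100 kb. Each scored 300 to under 1000 in the peak caller's own units. Whether they are enhancers, or have enhancers without a GATA2 peak nearby, was not examined. The peaks were chosen by those 2 deposited values, position and score, so their spacing and scores are given as a description. The rule found 783 peaks, which is 2.21% of the 35488 autosomal peaks and 6.98% (Wilson 95% interval 6.52% to 7.47%) of the 11216 autosomal peaks in the same score range. The other 10433 peaks of that range, each with a neighbouring midpoint within 100 kb, are called neighboured peaks below and serve as the comparison.

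The study mapped GATA2 by chromatin immunoprecipitation and sequencing (ChIP-seq) in LNCaP, an established prostate cancer cell line. The labels give 1 group of 2 replicate samples, grown with 10% serum and switched 3 days before the assay to 5% serum treated with charcoal, a treatment that strips steroid hormones. No untreated, input or other control group is among the samples used here. The data are a single deposited list, 36797 peaks long, with no value per replicate, so the spread between replicates is unknown, no p-value was computed and the sequencing depth behind a peak is unknown. The intervals given are for counting over peaks only, and peaks are not replicates. The score has no stated unit and was used to rank and filter peaks within the list, not as a strength of binding. Sequences, motifs and genes at these positions were not analysed here, since no genome or annotation of hg19, the build of the list, was used.

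The score range takes in a broad upper part of the list. It holds 31.6% of the autosomal peaks, with 1344 peaks scoring higher and 22928 scoring lower. Within it the median score was 469 for isolated peaks (95% interval 451 to 484) and 473 for neighboured ones (95% interval 468 to 479), and these intervals overlapped. In the 7 score bins of 100 that make up the range, the isolated share lay between 6.31% at 500 to under 600 and 7.33% at 600 to under 700. Peaks scoring 80 to under 100, the lowest of the list, were isolated in 8.57% of cases (Wilson 95% interval 7.76% to 9.46%). Peaks scoring 1000 or more were isolated in 5.88% of cases (Wilson 95% interval 4.74% to 7.27%). The intervals at the bottom and at the top of the list did not overlap, with the lower share at the top.

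The thresholds cut through a continuous range. The peak nearest to the distance limit on the inside, at chr3:48228165-48228464, scored 318 and lay 100012 bp from its neighbour, and the next, at chr14:92814406-92814848, scored 503 and lay 100167 bp away. Just outside were the 2 peaks of a pair, chr2:71308578-71308816 with a score of 654 and chr2:71408447-71408818 with a score of 779, which lay 99935.5 bp from each other and 587 and 566 kb from the next peak on their other sides. At the lower score limit, isolated peaks at chr2:153155718-153156005 (score 300.22) and chr11:79398160-79398441 (300.86) were inside, while chr2:236139373-236139747 (299.97) and chr9:136734870-136735200 (299.84) were outside. At the upper limit, chr18:22448636-22449035 (998.26) and chr4:168137907-168138381 (996.90) were inside, and chr17:10220581-10220988 (1008.96) and chr9:104081111-104081503 (1010.87) were outside.

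Most isolated peaks cleared the distance limit by a modest amount on one side and by more on the other. The nearer neighbour lay at a median of 137 kb (95% interval 132 to 142 kb), with 90% of the peaks between 102 and 309 kb. The farther neighbour lay at a median of 243 kb (95% interval 228 to 253 kb). The stretch from one neighbour to the other, within which the isolated peak was the sole call, had a median length of 393 kb (95% interval 378 to 410 kb), against 99.1 kb for neighboured peaks. The rule sets much of that difference, since it leaves both sides of an isolated peak empty for over 100 kb. Of the 783 isolated peaks, 149 were more than 200 kb from any other midpoint, 44 more than 300 kb and 3 more than 500 kb. The first or last peak of a chromosome, which has a neighbour on 1 side only, accounted for 2 of them.

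**Figure D1:**
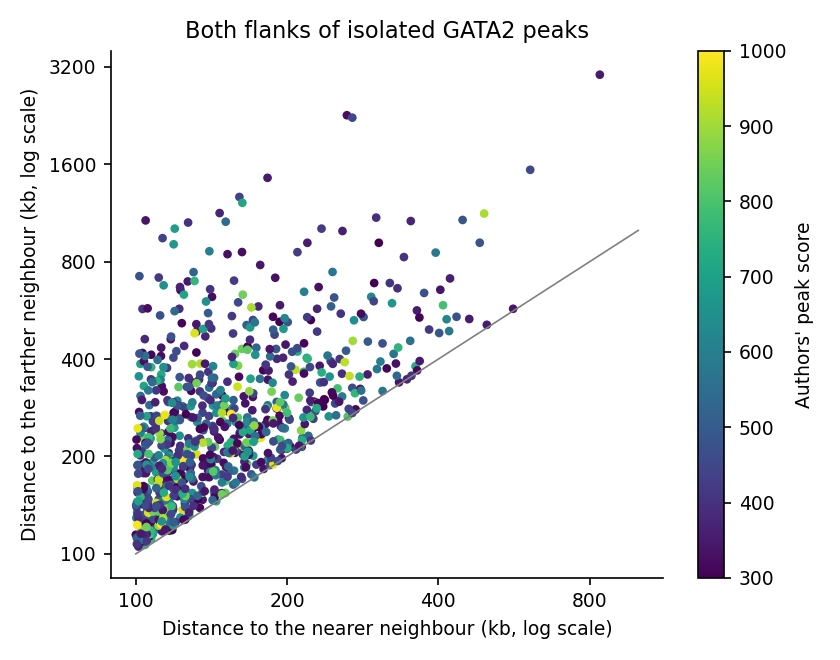
Distance from each of 781 isolated peaks to its nearer neighbour (x axis, kb, log scale) and to its farther neighbour (y axis, kb, log scale); each point is 1 peak, its colour is the authors' score, and the grey line marks equal distances. The points crowd in the lower left, around the medians of 137 and 243 kb, and high and low scores are mixed over the whole plane.

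The peaks farthest from any other had long empty flanks on both sides. Leaving out chromosome 8, whose peaks were not named, the longest distance belonged to chr16:62065999-62066347, a peak 349 bp wide with a score of 454. It lay 609 kb from the peak on its left and 1539 kb from the one on its right, and 6 other peaks fell within 1 Mb of it. On chromosome 4 the peak at chr4:23204448-23204647, 200 bp wide with a score of 343, stood 572 and 564 kb from its neighbours, nearly in the middle of its stretch. The peak at chr22:49412154-49412471, with a score of 352, was placed almost as evenly, 511 and 500 kb from its neighbours.

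The fourth in distance, chr1:195214872-195215313, had the highest score of this set. It was 442 bp wide, scored 911 and lay 1127 kb from the peak before it and 493 kb from the peak after it, which scored 95.9. Chromosome 2 held 3 of the 8 farthest peaks. These were chr2:199200564-199200856 with a score of 476 and a nearest distance of 484 kb, chr2:64743640-64743978 with a score of 352 and 461 kb, and chr2:137926178-137926538 with a score of 479 and 435 kb. The remaining peak of the 8, chr4:118753561-118753703, was 143 bp wide and scored 482 at 447 kb. Between 6 and 17 other peaks lay within 1 Mb of these 8, a count that their long empty flanks limit. Across the 783 peaks the nearest distance was nearly unrelated to the score (Spearman's rho -0.05, a description across peaks).

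Isolated peaks were narrower than neighboured peaks of the same score. Their median width was 366 bp (95% interval 358 to 373 bp), against 385 bp (95% interval 384 to 387 bp) for neighboured peaks. The shift ran through the distribution: the middle 50% measured 327 to 413.5 bp for isolated peaks and 344 to 441 bp for neighboured ones, and 90% measured 267 to 563 bp and 289 to 622 bp. Width was not used by the rule, but it rises with score, with a rho of 0.56 across the isolated peaks and 0.48 across the neighboured ones. The comparison was therefore made within score bins of 100. The isolated median was lower in 7 of 7 bins, and the mean ratio of isolated to neighboured medians over the bins, weighted by the isolated peaks in each, was 0.96.

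The intervals of the classes stood apart in 3 of the 7 bins. At 300 to under 400 the 265 isolated peaks had a median of 329 bp (95% interval 321 to 335 bp) and the 3430 neighboured peaks 348 bp (95% interval 346 to 350 bp). At 400 to under 500 the medians were 357 bp (95% interval 352 to 364 bp) and 374 bp (95% interval 371 to 376 bp). The largest difference over the 7 bins was at 700 to under 800, with 395.5 bp (95% interval 383 to 417 bp) for 62 isolated peaks and 428 bp (95% interval 424 to 435 bp) for neighboured ones. In the other 4 bins they overlapped, and the smallest difference was 5 bp, at 600 to under 700, with medians of 406 and 411 bp.

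**Figure D2:**
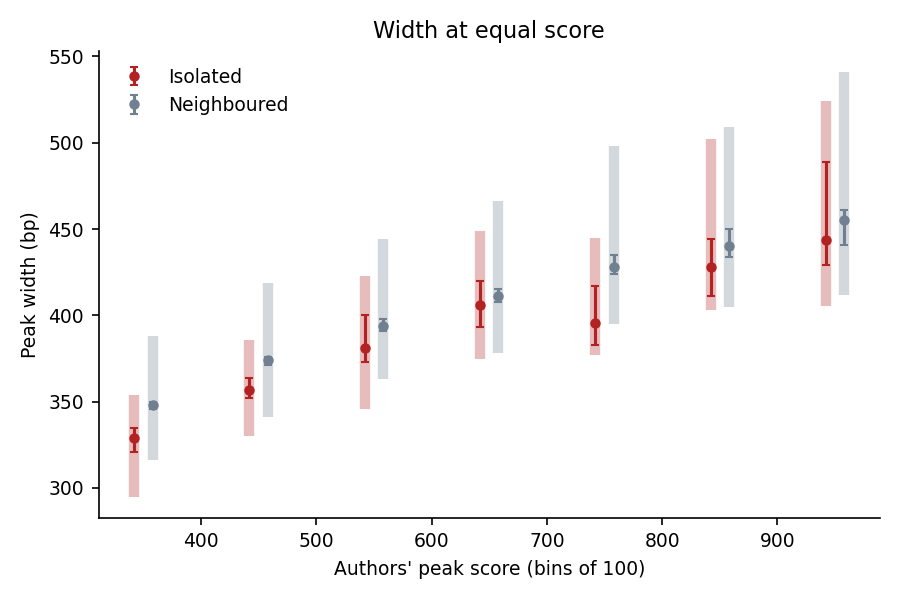
Peak width (bp) by the authors' score in bins of 100, for isolated (red) and neighboured (grey) peaks; points are medians, thin bars their exact binomial 95% intervals and pale bars the middle 50% of peaks, and the y axis does not start at 0. The red point is below the grey one in all 7 bins, from 329 against 348 bp at the lowest scores to 443.5 against 455 bp at the highest.

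The narrower width of isolated peaks was not a property of this score range alone. Isolated peaks were narrower in 12 of 12 score bins over the whole list. At 80 to under 100 the medians were 146 bp (95% interval 143 to 151 bp) and 168 bp (95% interval 166 to 170 bp), a ratio of 0.87, and at 1000 or more they were 473 and 496 bp, a ratio of 0.95. By chromosome, the isolated median in the score range was lower on 20 of 22 autosomes. The exceptions were chromosome 20, with 411 bp over 13 isolated peaks against 372 bp, and chromosome 17, with 376 bp over 27 against 367.5 bp.

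Nor did the width change in a step at 100 kb. Each width was divided by the median of all peaks of its score bin, so that 1 stands for the usual width at that score. The median relative width was 1.09 (95% interval 1.07 to 1.11, n = 392) where a neighbour stood within 1 kb and 1.05 where it stood 1 to 5 kb away (95% interval 1.04 to 1.07). It was 1.00 at 10 to 25 kb and 0.98 (95% interval 0.97 to 0.99) at 50 to 100 kb. Within the isolated peaks it was 0.97 (95% interval 0.96 to 0.98, n = 464) at 100 to 150 kb, 0.96 (95% interval 0.93 to 0.98, n = 170) at 150 to 200 kb and 0.94 (95% interval 0.91 to 0.97, n = 149) beyond 200 kb. The median fell from each distance class to the next. The intervals within 1 kb and at 1 to 5 kb overlapped, however, as did those of neighbouring classes beyond 10 kb.

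**Figure D3:**
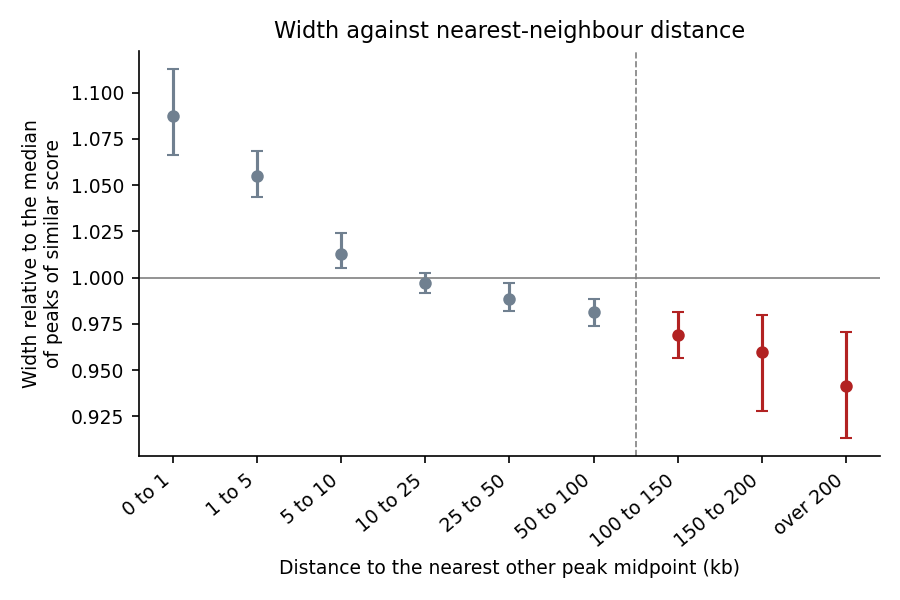
Median width relative to all peaks of the same score bin (y axis, no unit, not starting at 0) by distance to the nearest other midpoint (x axis, kb); bars are exact binomial 95% intervals, grey points are neighboured and red points isolated peaks, and the dashed line marks 100 kb. The median goes from 1.09 within 1 kb to 0.94 beyond 200 kb with no break at the dashed line.

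The classes were also compared at like numbers of peaks farther out. The peaks 100 kb to 1 Mb away, a ring that leaves out the distance fixed by the rule, were counted in 8 bins. The isolated median relative width was the lower one in 8 of 8 bins, but the intervals stood apart in only 2 and touched or overlapped in the other 6. Isolated peaks with 0 to 9 of them had a median relative width of 0.90 (95% interval 0.84 to 0.92, n = 58), and neighboured peaks with as few had 0.98 (95% interval 0.95 to 1.01, n = 228). The other bin with separate intervals was that of 30 to 34 ring peaks, with 0.96 (95% interval 0.94 to 1.00, n = 85) and 1.01 (95% interval 1.00 to 1.02). From 10 to 34 ring peaks the isolated medians stayed between 0.96 and 0.98. With 35 to 39 ring peaks the classes were level, at 1.02 for 31 isolated peaks and 1.03 for 937 neighboured ones. With 40 or more the medians were again apart, but the intervals overlapped. They were 0.96 (95% interval 0.89 to 1.19, n = 24) for isolated and 1.06 (95% interval 1.05 to 1.08, n = 896) for neighboured peaks.

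Very narrow peaks were more frequent, and wide ones less frequent, among isolated than among neighboured peaks. A width under 200 bp was found in 14 isolated peaks, or 1.79% (Wilson 95% interval 1.07% to 2.98%), and in 69 neighboured peaks, or 0.66% (Wilson 95% interval 0.52% to 0.84%). The 14 lay on 10 chromosomes and scored between 341 and 743. The narrowest of those named was chr1:166503415-166503498, 84 bp wide with a score of 359, which stood 710 and 422 kb from its neighbours. The next were chr9:34999152-34999261 (110 bp, score 563), chr6:70183082-70183206 (125 bp, score 400.3) and chr13:56545761-56545894 (134 bp, score 399). The fifth, chr1:38077290-38077427, combined 138 bp with a score of 713, in a score bin whose isolated peaks had a median of 395.5 bp. Library fragments were selected at about 225 bp with adapters, per the labels' protocols.

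At the other end, 26 isolated peaks, or 3.32% (Wilson 95% interval 2.28% to 4.82%), measured 600 bp or more, against 5.97% (Wilson 95% interval 5.53% to 6.44%) of neighboured peaks. A width of 1000 bp or more was found in 2 isolated peaks, or 0.26% (Wilson 95% interval 0.07% to 0.93%). Among neighboured peaks the share was 0.37% (Wilson 95% interval 0.27% to 0.51%), and these intervals overlapped. The widest, chr17:72510044-72511304, measured 1261 bp with a score of 575 and lay 744 and 246 kb from its neighbours. The second, chr10:131926092-131927157, measured 1066 bp with a score of 576 and stood 172 kb from a neighbour on both sides. The remaining 3 of the 5 widest were chr11:97475081-97475906 (826 bp), chr2:3831086-3831897 (812 bp) and chr7:87004950-87005721 (772 bp), with scores of 521, 607 and 480. The widest neighboured peak measured 5941 bp, a maximum over 10433 peaks that is not comparable with one over 783.

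The best-scoring isolated peaks varied in width. The 8 with the highest scores below the limit of 1000, between 978 and 998, measured 376 to 694 bp, while the isolated peaks scoring 900 to under 1000 had a median of 443.5 bp and a middle 50% of 405.5 to 524 bp. The highest, chr18:22448636-22449035, was 400 bp wide and lay 112 and 124 kb from its neighbours, the nearer of which scored 102. The peak at chr4:168137907-168138381 (score 997, 475 bp) had 9 peaks within 1 Mb, the fewest of the 8, and its nearest neighbour, 163 kb away, scored 839. Chromosome 15 contributed chr15:41408684-41409165 with a score of 994 and 28 peaks within 1 Mb.

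Chromosome 17 held 2 of the 8 only just beyond the distance limit, chr17:73553136-73553511 (score 991) at 100.7 kb and chr17:75282614-75283108 (score 980.5) at 100.9 kb. Chromosome 5 held 2 more, chr5:145582751-145583301 (score 991, 551 bp) at 124 kb and chr5:169622214-169622666 (score 978, 453 bp) at 177 kb. The eighth, chr4:162516352-162517045, was the widest of them at 694 bp, with a score of 981 and 30 peaks within 1 Mb. High-scoring isolated peaks thus stood both in regions of low and of above-median peak density.

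Isolated peaks lay in regions with fewer GATA2 peaks, well beyond the distance the rule emptied. Within 1 Mb on either side they had a median of 21 other peaks (95% interval 20 to 21) and neighboured peaks 29 (95% interval 29 to 29). Part of that is set by the rule, which leaves an isolated peak none within 100 kb. In the ring from 100 kb to 1 Mb the medians were 21 (95% interval 20 to 21) and 26 (95% interval 25 to 26), and the isolated median was lower on 20 of 22 autosomes, tied at 26 on chromosome 15 and higher on chromosome 20, at 22 against 20. The ranges overlapped widely, with 90% of isolated peaks between 8.1 and 36 ring peaks and 90% of neighboured ones between 12 and 43. Fewer than 10 peaks within 1 Mb were found around 58 isolated peaks, or 7.41% (Wilson 95% interval 5.77% to 9.46%), and around 0.86% (Wilson 95% interval 0.70% to 1.06%) of neighboured peaks. That count takes in the 100 kb emptied by the rule, which widens the contrast. In the ring alone, 0 to 9 peaks lay around 58 of the 783 isolated peaks and around 228 of the 10433 neighboured ones. By the count within 1 Mb, 90 neighboured peaks had fewer than 10. Ring counts come from the same peak positions as the rule and neighbouring peaks share them, so they are a description.

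The lower density faded with distance. For peaks with 5 Mb of the list on both sides and no long peak-free stretch there (651 isolated and 9152 neighboured), the mean density 100 to 200 kb away was 11.2 peaks per Mb around isolated peaks and 16.1 around neighboured ones, a ratio of 0.70. From 0.2 to 0.5 Mb the ratio was 0.78, with 11.9 and 15.2 peaks per Mb. It was 0.87 from 0.5 to 1 Mb and 0.94 from 1 to 2 Mb. From 2 to 3 Mb it reached 0.98, with 13.2 and 13.5 peaks per Mb, and from 3 to 5 Mb it was 0.96. The curves approached each other, the isolated one from below and the neighboured one from above.

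**Figure D4:**
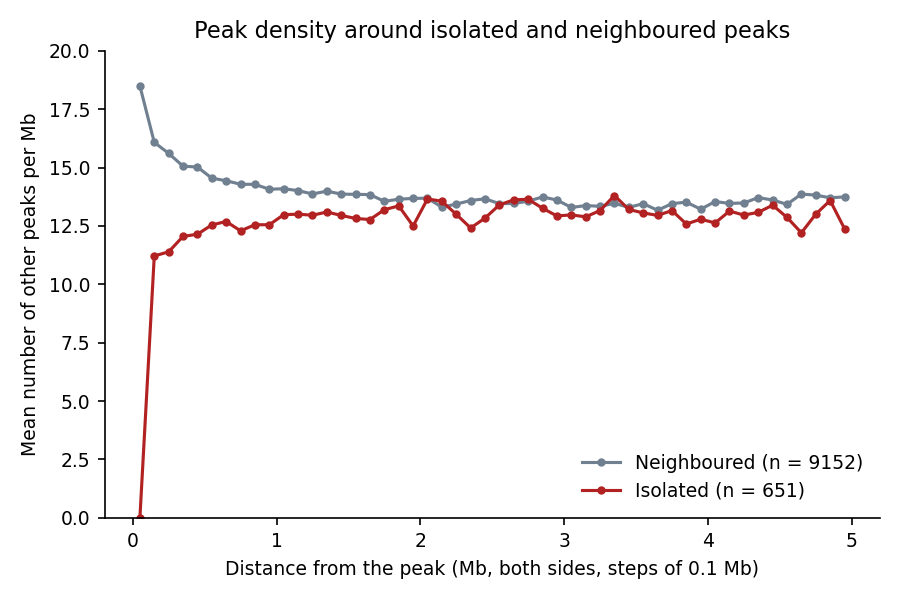
Mean number of other peaks per Mb (y axis) in steps of 0.1 Mb on both sides of a peak out to 5 Mb (x axis), for isolated (red) and neighboured (grey) peaks; no error is drawn, since neighbouring peaks share their surroundings. The first red point is 0 by the rule; from 0.1 to 0.2 Mb the values are 11.2 and 16.1, and beyond 2 Mb the curves lie close together.

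The peaks next to isolated and neighboured sites had overlapping ranges of score. For the nearest neighbour the median score was 217 beside isolated peaks (95% interval 203 to 239) and 221 beside neighboured ones (95% interval 217 to 226). A nearest neighbour scoring 300 or more was found for 294 isolated peaks, or 37.5% (Wilson 95% interval 34.2% to 41.0%), and for 36.6% (Wilson 95% interval 35.7% to 37.5%) of neighboured peaks. In the ring, 35.9% of the peaks around isolated sites and 36.1% of those around neighboured sites scored 300 or more. The regions around isolated peaks thus held fewer peaks, and the shares of higher-scoring ones differed by under 1 percentage point. The nearest peak scoring 300 or more lay at a median of 200.03 kb (95% interval 191 to 210 kb) from an isolated peak and 50.7 kb (95% interval 49.2 to 52.4 kb) from a neighboured one. The rule sets part of that difference, since it allows an isolated peak no midpoint of any score within 100 kb.

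Part of the isolated peaks followed one another. For 250 of the 783, or 31.9% (Wilson 95% interval 28.8% to 35.3%), the nearest neighbour was itself isolated, at any score, while 7.37% of all autosomal peaks were isolated. The figures are not alike in kind, since the rule already leaves such a neighbour 1 side empty for over 100 kb. In genome order, 344 members (43.9%) were single, with no isolated peak directly before or after, and 247 (31.5%) stood in pairs of successive isolated peaks of any score. The remaining members stood in runs of 3 or more. The longest such run to hold a member, found by looking for it, was 10 successive isolated peaks over 1.89 Mb of chromosome 11 (chr11:20408970-22298370), with scores of 82.8 to 346, of which 2 were members. Runs of 8 on chromosome 4 (chr4:42987769-44707270, 1.72 Mb, 3 members) and chromosome 13 (chr13:108216104-109962697, 1.75 Mb, 1 member) came next.

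On a wider scale the members were scattered. Of 567 windows of 5 Mb holding any peak on the autosomes, 134 held no isolated member, 210 held 1, 137 held 2, 59 held 3 and 27 held 4 or more. Windows without a member had a median of 68 peaks of any score windows with 3 had 55 and windows with 4 or more had 59. The most in a window was 7, on chromosome 1 from 35 to 40 Mb, where they were 7 of 19 peaks in the score range and 59 of any score, and in 1 window of chromosome 8. Chromosome 2 from 0 to 5 Mb followed with 6 of 20. Among the windows with 5, chromosome 13 from 80 to 85 Mb held only 36 peaks in all, while chromosome 7 from 10 to 15 Mb held 78. These windows were picked after their counts were seen.

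Every autosome held isolated peaks, from 6 on chromosome 21 to 77 on chromosome 2. The share of peaks in the score range that were isolated was highest on chromosome 22, at 11.7% (14 of 120, Wilson 95% interval 7.08% to 18.6%), followed by chromosome 16, at 11.6% (26 of 224, Wilson 95% interval 8.05% to 16.5%), and chromosome 18, at 10.1% (29 of 287, Wilson 95% interval 7.13% to 14.1%). It was lowest on chromosome 21, at 3.37% (6 of 178, Wilson 95% interval 1.55% to 7.16%), chromosome 15, at 4.71% (17 of 361, Wilson 95% interval 2.96% to 7.41%), and chromosome 14, at 5.19% (22 of 424, Wilson 95% interval 3.45% to 7.73%). The intervals of 17 of 22 autosomes included the pooled 6.98%. They lay above it on 4, chromosomes 2, 16, 18 and 22, and below it on chromosome 1, at 5.32% (59 of 1108, Wilson 95% interval 4.15% to 6.81%). Those of chromosomes 21, 15 and 14 included it. Neighbouring peaks share their spacing, so these intervals, which treat peaks as separate, do not measure the error of a chromosome's share.

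The share followed how densely a chromosome was covered. Density was taken per Mb from a chromosome's first peak to its last, less stretches over 2.5 Mb without peaks. Chromosome 21 had the most peaks per Mb of any score, 16.2, and chromosomes 16 and 22 had 10.4 and 10.8. Over the 22 autosomes the isolated share and the number of peaks per Mb had a Pearson's r of -0.84 and a Spearman's rho of -0.88. Both measures come from the same peak positions, so this is a description. Chromosome 19 had the fewest peaks per Mb, 8.64, and an isolated share of 9.73% (11 of 113, Wilson 95% interval 5.52% to 16.6%), below that of chromosomes 22, 16 and 18 but not apart from them within these intervals. Per length of chromosome, isolated peaks were less uneven than these shares, at 0.17 per Mb on chromosome 21 to 0.40 on chromosome 22 with a median of 0.30.

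**Figure D5:**
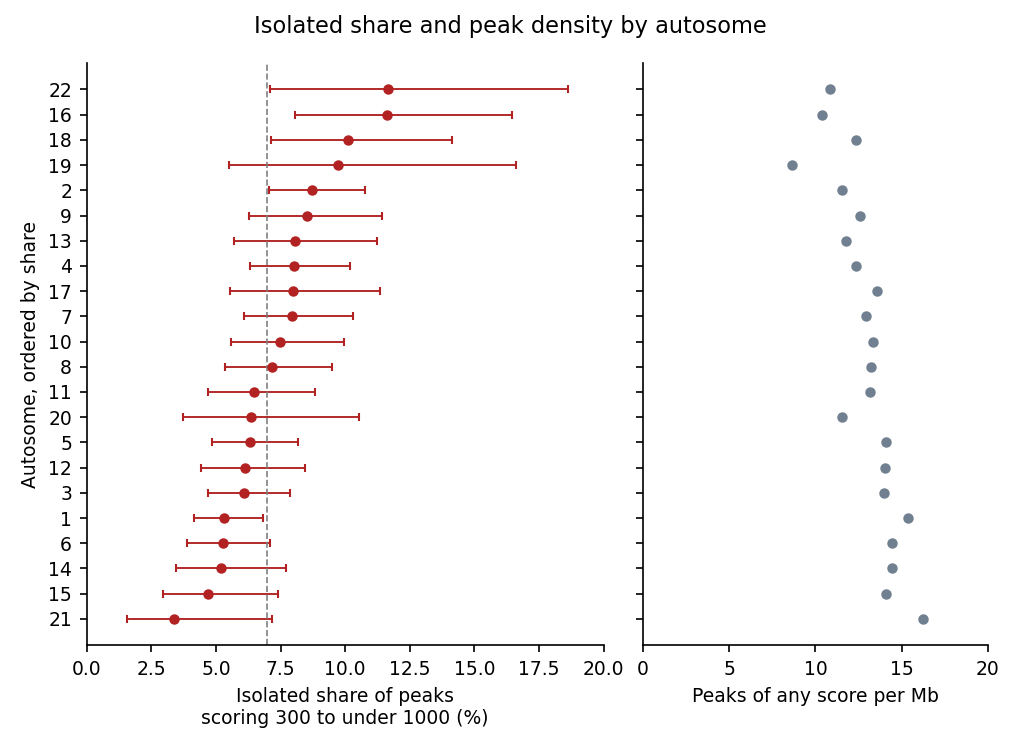
Left, share of peaks scoring 300 to under 1000 that were isolated (x axis, %) on each of the 22 autosomes, ordered by share, with Wilson 95% intervals and the pooled 6.98% as a dashed line; right, peaks of any score per Mb on the same chromosomes. Shares run from 3.37% on chromosome 21 to 11.7% on chromosome 22, and chromosomes with high shares tend to have fewer peaks per Mb.

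Few isolated peaks lay at chromosome ends or beside long peak-free stretches. A position within 1 Mb of a stretch over 2.5 Mb without peaks, or of the first or last peak of a chromosome, was held by 22 isolated peaks, or 2.81% (Wilson 95% interval 1.86% to 4.22%), and by 2.39% (Wilson 95% interval 2.11% to 2.70%) of neighboured peaks, with overlapping intervals. Without these peaks the median widths were 365 and 385 bp and the median ring counts 21 and 26.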

How the data were processed

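Per the submitters' processing notes, the reads of the 2 GATA2 ChIP-seq samples were aligned to hg19 by Bowtie. The peak names in the deposited list name MACS as the peak caller. Versions, the use of a control library and any pooling of replicates are not stated in these sources. The deposited score is the authors' own value per peak and has no stated unit. The list holds no read counts, so depth is not known. Coordinates are printed 1-based, and width is end minus start as deposited. Distances and counts used midpoints of peaks of any score on the same chromosome. For medians, 95% intervals are exact binomial ones taken from the ordered values, and for shares they are Wilson intervals. Part of the calculations was tested on simulated data. These were the sorting into classes, the width ratio over score bins, the coverage of the median interval and the ring count of a single peak. Python 3.11.15, numpy 2.4.6, pandas 2.3.3, scipy 1.17.1 and matplotlib 3.10.9 were used.

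Named peaks are the 8 farthest from any other midpoint, the 8 highest-scoring, the 5 widest and the 5 narrowest, and 2 on each side of each threshold, with none from chromosome 8 (43 members). The chromosomes planned for naming were the 3 highest and 3 lowest by isolated share. Others are named where a result singled them out after the data were seen. The members and lists were chosen with earlier results of these data known. Alternatives covered the distance limit, the distance measure, the score range, which peaks count as neighbours, merging and chromosome ends. Motif content and location against genes were planned and not run, since no hg19 sequence or annotation was used here.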

Additional observations from a re-analysis of the deposited data

How the results depend on the processing

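Isolated peaks were narrower than neighboured ones and had fewer peaks 100 kb to 1 Mb away under all 8 settings tried, although the 200 kb limit itself empties the inner part of that ring. The settings share many of the same peaks, so they are not 8 separate checks. With a limit of 50 kb there were 2427 isolated peaks in place of 783, with 24 peaks within 1 Mb in place of 21 and 23 in the ring in place of 21. With a limit of 200 kb there were 149, with a median width of 355 bp in place of 366 bp, 16 peaks within 1 Mb and 16 in the ring. Scores of 300 to under 600 gave a median width of 346 bp, and scores of 600 to under 1000 gave 238 peaks with a median width of 411.5 bp. With only peaks scoring 100 or more as neighbours there were 19 peaks within 1 Mb and 19 in the ring. The cause of these shifts was not tested, beyond the change that each limit makes to which peaks are counted. The width ratio of 0.96 ran from 0.94 (200 kb) to 0.97 (scores of 600 to under 1000), with 0.96 for score bins of 50. Of 41 alternative values for the main results, 29 stayed within the 95% interval, within 1.5 times the count, or, for the width ratio, within the range over score bins. The alternatives for neighboured peaks and for chromosomes were chosen after seeing the data. The 3 chromosomes with the highest share stayed above the pooled share in every setting except the 200 kb limit, where 2 of 3 did, and the 3 lowest stayed below it except for 1 of them at 50 kb and 1 at scores of 600 to under 1000. Settings on motifs and genes were not run. No replicate could be left out of a single list. No paired analysis was possible because no column belongs to 1 sample. Depth is not known, so an empty flank may still hold binding.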

Other observations

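The same rule applied to the sex chromosomes, which the members leave out, gave a larger isolated share on X. Of 270 peaks on X scoring 300 to under 1000, 61 were isolated, or 22.6% (Wilson 95% interval 18.0% to 27.9%), against 6.98% on the autosomes. Their median width was 338 bp (95% interval 320 to 371 bp), and that of neighboured peaks on X was 351 bp (95% interval 345 to 364 bp). These intervals overlapped. In the ring from 100 kb to 1 Mb, isolated and neighboured peaks on X both had a median of 13 other peaks. On the autosomes the medians were 21 and 26, so both classes had fewer ring peaks on X. The lower ring count of isolated peaks on the autosomes was not seen on X. On Y, 5 of 67 peaks in the same score range were isolated, or 7.46% (Wilson 95% interval 3.23% to 16.3%). Their median ring count was 9, against 20.5 for neighboured peaks on Y, but it rests on 5 peaks.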
